A study of Mus musculus with 24 samples.

Results

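Axon guidance ligands and receptors were examined in the cerebellum of mice that lack Derlin-1 or Derlin-2 in the central nervous system. The members were all genes whose symbol names a semaphorin of classes 3 to 7, a plexin, a neuropilin, a netrin or netrin-G, Dcc, an Unc5 or Robo receptor, a Slit, an ephrin or an Eph receptor. The reference names 74 such symbols, of which 73 had a probe, out of 22911 gene symbols on the array, and Sema4b had none. Of these 73, 70 passed the filter on dim probes and were tested among 16935 genes. The rule used names only and no measured value. It also took in Unc50, Unc5cl and the antisense transcript Plxna4os1, which are not guidance proteins, so that 68 guidance genes were tested, 35 for ligands and 33 for receptors.

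Growing axons and migrating neurons read secreted and membrane-bound cues through receptors on their surface. Semaphorins signal through plexins, often with neuropilins as co-receptors. Netrins signal through Dcc and Unc5, and Slits through Robo receptors. Ephrins bind Eph receptors on neighbouring cells and signal in both directions. In the cerebellum these families guide granule cell migration and the wiring of mossy, climbing and parallel fibres, and several continue to act at synapses after wiring is complete.

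Total RNA was measured on 24 single-colour arrays, 1 per sample, in 12 groups of 2, from C57BL/6 mice aged 28 days. Knockout (KO) mice carried floxed Derl1 or Derl2 and Cre recombinase under the nestin promoter, which is active in neural progenitors and so in their neuronal and glial descendants. Controls carried the floxed alleles without Cre, so that an effect of Cre itself cannot be told apart from loss of the gene. Each line was compared with its own controls. The chemical chaperone 4-phenylbutyrate (4PBA, 200 mg/kg) or water was injected into the abdomen daily from day 14 to day 28. The Derlin-1 line had a numbered series (control vehicle, KO vehicle, control 4PBA, KO 4PBA, replicates 1 and 2) and a lettered series of the same 4 kinds (replicates a and b), whose arrays without 4PBA name no vehicle. The Derlin-2 line had 1 numbered series of 4 groups. The labels do not say that replicates came from separate animals, so p-values measure only the spread between these samples, which may be technical. Derlin-1 and Derlin-2 are endoplasmic reticulum membrane proteins that take part in the disposal of misfolded proteins, and the design asks what their loss and 4PBA do to cerebellar transcripts. A level below is a log2 intensity relative to the 75th percentile of its array. A change or difference of a gene is that of its log2 levels, KO minus control or 4PBA minus none, and called means a limma p below 0.05 after adjustment over all genes.

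The targeted genes were checked first. The Derl1 probe did not separate the Derlin-1 groups (0.76 to 1.22 on the 8 controls, 0.14 to 0.94 on the 8 KO arrays), and whether it lies in the deleted part is not given in the sources used here. Derl2 had levels of 1.40 to 1.58 on the 4 Derlin-2 controls, 0.18 and 0.24 on both 4PBA-treated KO arrays and 0.48 on the array labelled KO vehicle 2. Its level was 1.72, above every control, where the label reads Derlin-2 KO vehicle 1, and a second Derl2 probe likewise had -0.40 there, against -0.57 to -0.41 on the controls and -2.40 to -1.97 on the other 3 KO arrays. Derl3, the third family member, did not place this array with the controls. It was -1.85 there, near both KO arrays with 4PBA (-1.96 and -1.93) and above the 4 Derlin-2 controls (-3.03 to -2.75), while array KO vehicle 2 had -0.61. In the Derlin-1 line Derl3 lay between -0.63 and 0.37 on 7 KO arrays. It was -2.27 on the lettered array b labelled Derlin-1 KO with 4PBA (array KO 4PBA b), within the range of the 8 Derlin-1 controls (-3.14 to -1.69). The main results that rest on either of these 2 arrays are given with and without it, and a group left with 1 array is assumed to vary like the other groups. All 8 granule neuron and all 8 Purkinje cell markers were well above background on all 24 arrays.

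Without 4PBA, 6 guidance genes were lower in Derlin-1 KO than in control cerebellum and none was higher. Sema3e, a repellent semaphorin, was 2.98-fold lower. The receptor Ephb2 was 1.71-fold lower, the cue Ntn1 1.67-fold lower, the receptor Plxna4 1.57-fold lower, the membrane-anchored Ntng1 1.35-fold lower and the receptor Epha8 1.28-fold lower. The 6 called genes were 3 ligands and 3 receptors. Among all genes 10.6% were called (1800 of 16935) and 5.37% were called lower, against 6 of 70 members (8.57%), so the share of members called was no higher than that of all genes. The median change of the members was -0.02 and that of all genes -0.01. An unadjusted p under 0.05 was found for 28.6% of members and for 26.7% of all genes. The 95% confidence interval of the change lay within 0.5 of 0 on the log2 scale for 40 of the 70 members. Leaving out untreated lettered KO array b, which leaves array a alone in its group, raised the count of members and of all genes called. Epha2, Robo3, Sema5a and Sema7a were then also called lower, Plxnd1 was called higher and Epha8 was lost. The change of Plxnd1 in the numbered series was -0.01, so its rise rested on lettered KO array a.

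**Figure D1:**
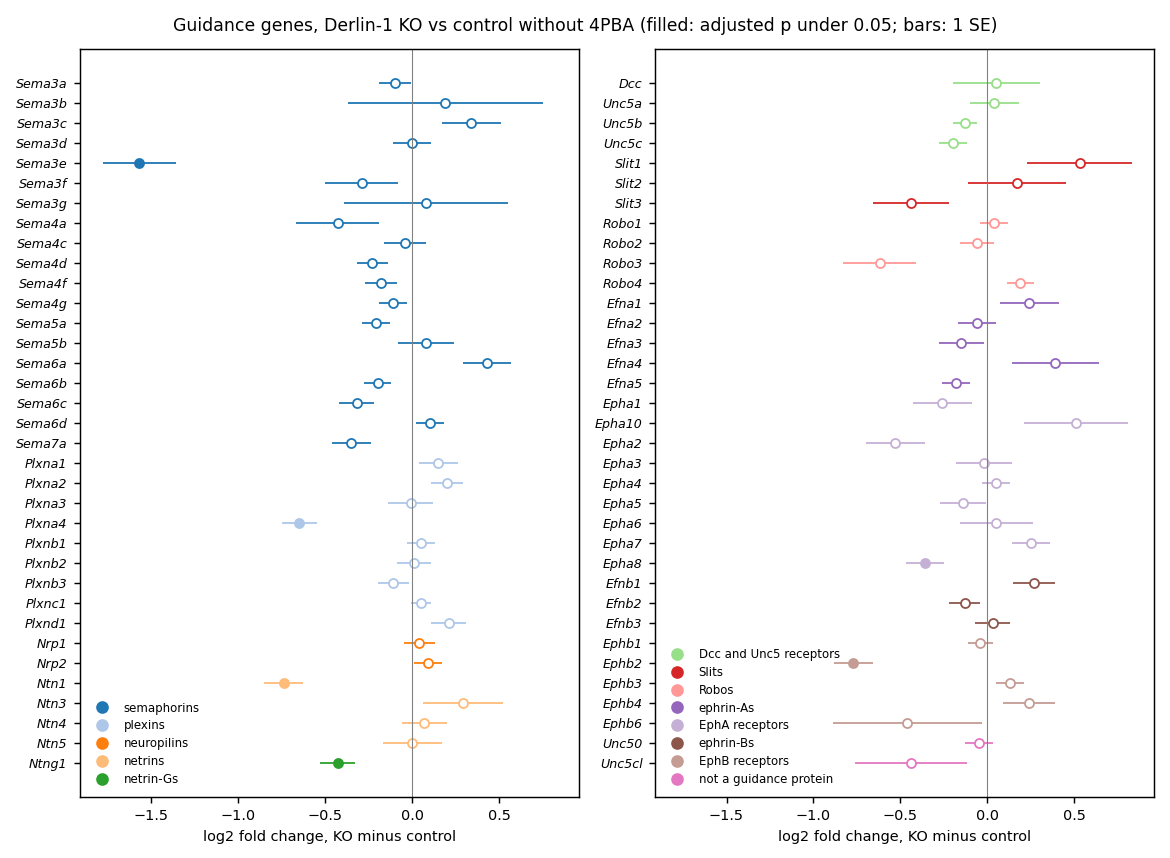
Log2 fold change, KO minus control, of the 70 tested genes in the Derlin-1 line without 4PBA, averaged over both series, by family; bars are 1 SE from the limma fit and filled points have an adjusted p under 0.05. The 6 filled points (Sema3e, Plxna4, Ntn1, Ntng1, Epha8 and Ephb2) all lie left of 0, from -1.57 to -0.36.

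The sequences just upstream of 4 of the called genes are shown because these genes fell together and Ephb2 and Epha8 lie near each other on chromosome 4, and Ntn1 and Plxna4 are not shown. Each is the 250 bases before the annotated start, 5′ to 3′ on the gene's strand, in RefSeq GRCm38.p6. Capitals mark a match to TGATGNAA, the composite element bound by ATF4 with C/EBP factors under stress, on either strand.
Sema3e (chr5:14025026-14025275, plus strand): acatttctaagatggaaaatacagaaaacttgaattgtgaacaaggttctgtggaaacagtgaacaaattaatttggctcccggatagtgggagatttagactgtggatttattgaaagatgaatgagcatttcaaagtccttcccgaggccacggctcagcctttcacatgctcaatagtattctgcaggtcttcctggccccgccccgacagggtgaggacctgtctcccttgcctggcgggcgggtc
Ntng1 (chr3:110143473-110143722, minus strand): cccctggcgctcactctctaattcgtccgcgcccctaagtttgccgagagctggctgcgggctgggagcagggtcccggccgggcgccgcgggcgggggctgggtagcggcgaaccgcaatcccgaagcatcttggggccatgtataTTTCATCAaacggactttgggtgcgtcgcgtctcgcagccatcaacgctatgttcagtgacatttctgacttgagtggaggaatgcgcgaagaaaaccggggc
Ephb2 (chr4:136836013-136836262, minus strand): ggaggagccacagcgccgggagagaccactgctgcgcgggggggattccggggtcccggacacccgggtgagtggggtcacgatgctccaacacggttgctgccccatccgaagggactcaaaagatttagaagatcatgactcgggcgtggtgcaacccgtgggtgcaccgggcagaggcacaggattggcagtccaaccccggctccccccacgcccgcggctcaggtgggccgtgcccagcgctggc
Epha8 (chr4:136956817-136957066, minus strand): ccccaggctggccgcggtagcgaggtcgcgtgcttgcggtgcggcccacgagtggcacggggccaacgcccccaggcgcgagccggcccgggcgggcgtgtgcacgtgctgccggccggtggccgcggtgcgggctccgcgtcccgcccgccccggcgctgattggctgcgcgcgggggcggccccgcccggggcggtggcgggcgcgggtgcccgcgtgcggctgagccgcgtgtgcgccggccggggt
The 4 differed in composition. Sema3e had 48.0% G and C and 7 CpG pairs, Ntng1 62.4% and 25, Ephb2 68.4% and 20, and Epha8 84.0% and 46, where the medians of all promoters in the table were 52.4% and 6. The motif was searched in windows from 250 bases before to 50 after the start. TGATGNAA occurred in 1 of 77 windows of 62 member genes, that of Ntng1, where it starts at position -103 on the opposite strand, and in 3.97% of 32851 windows of all genes. TGACGTGG, an element bound by XBP1 and ATF6, occurred in none of the 77 and in 0.676% of all windows. These matches describe letters only.

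Semaphorins are mostly repellent cues, and 19 were tested in the Derlin-1 comparison, of which 1 fell and none rose. Sema3e, which binds Plxnd1 directly and needs no neuropilin to do so, had levels of -0.24 and -0.31 in vehicle controls and -1.70 and -1.67 in vehicle KO of the numbered series. In the lettered series controls had -0.11 and -0.30, and KO had -2.10 and -1.79. All 4 KO arrays lay more than 1 unit below all 4 controls. The change was -1.57 (SE 0.21, adjusted p 0.00203), with -1.41 for the numbered and -1.74 for the lettered arrays. The change of its receptor Plxnd1 was 0.21 (SE 0.10, adjusted p 0.204).

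None of the other 18 semaphorins passed the test. Sema7a, a membrane-anchored semaphorin, had a difference of -0.35 (SE 0.11, adjusted p 0.0645) and the transmembrane Sema6c of -0.32 (SE 0.10, adjusted p 0.0649). Sema6a, which acts in granule cell migration, had one of 0.43 (SE 0.14, adjusted p 0.0710). The levels of Sema6a were 0.00, -0.16, -0.12 and 0.30 on the 4 controls and 0.40, 0.15, 0.66 and 0.50 on the 4 KO arrays, with no overlap within either series but with overlap across them. Sema3a, the classical ligand of neuropilin complexes, had a difference of -0.10.

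Plexins are the signalling receptors of semaphorins. Of 9 tested, Plxna4 alone was called. Plxna4 pairs with neuropilins for class 3 semaphorins and also binds class 6 semaphorins. It had 2.29 and 2.10 in controls and 1.55 and 1.66 in KO of the numbered series, and 1.63 and 1.81 against 0.87 and 1.13 in the lettered series. Controls and KO did not overlap within a series, but the lettered controls lay at the level of the numbered KO arrays, a difference between slides that the comparison within slides leaves out. The change was -0.65 (SE 0.10, adjusted p 0.00324). None of the other 3 class A plexins passed the test, with differences of 0.15 (Plxna1), 0.20 (Plxna2) and -0.01 (Plxna3), nor did the co-receptors Nrp1 and Nrp2, with 0.04 and 0.09. Other probes well above background on all 24 arrays read 21 of the members, and none of these 25 probes was called. Of the genes called lower in Derlin-1 KO only Ephb2 had such a probe. Sema3e, Plxna4, Ntn1 and Epha8 had 1 probe each, and the second Ntng1 probe was well above background on 2 arrays. For 5 members another probe differed by over 0.2 from the value given here, namely Nrp2 (0.42, SE 0.14, adjusted p 0.0958 with every probe tested), Sema6a (0.21), Robo1 (-0.47), Epha5 (0.31) and Ephb2.

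Netrins are secreted proteins related to laminin, and 1 of 4 fell. Ntn1, which attracts axons through Dcc and repels them through Unc5 receptors, had 0.95 and 0.82 in controls and 0.34 and 0.39 in KO of the numbered series. The lettered series had 0.90 and 0.53 in controls and -0.16 and -0.33 in KO. All 4 KO arrays lay below all 4 controls. The change was -0.74 (SE 0.11, adjusted p 0.00242), with -0.52 for the numbered and -0.95 for the lettered arrays, and the difference between the series (-0.43, adjusted p 0.978) was not called. Of its Dcc and Unc5 receptors, those tested did not pass the test, and Unc5d was not tested. Neo1, a receptor related to Dcc that is not a member, was called higher (0.33, limma adjusted p 0.00752). Dcc had a difference of 0.05, Unc5a of 0.04, Unc5b of -0.13 and Unc5c of -0.20. A second tested Dcc probe gave 0.08, and with every probe tested the SE was 0.25 for both. The mean levels of these Dcc probes were 6.36 and -4.11, and which of them reads Dcc was not tested. The differences of Ntn3, Ntn4 and Ntn5 were 0.29, 0.07 and 0.00.

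Ntng1 is anchored in the membrane by a lipid and binds a synaptic adhesion protein in place of Dcc. It had -0.07 and 0.01 in controls and -0.54 and -0.41 in KO of the numbered series, and 0.12 and -0.02 against -0.45 and -0.30 in the lettered series. The 4 KO arrays lay below the 4 controls. The change was -0.43 (SE 0.10, adjusted p 0.0132). Its adjusted p rose to 0.053 with the Derlin-1 arrays fitted alone, to 0.0503 without numbered KO vehicle array 1 and to 0.0622 without untreated lettered KO array a.

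Slits repel axons through Robo receptors. None of the 3 Slits and 4 Robos passed the test. The differences of Slit1, Slit2 and Slit3 were 0.53, 0.17 and -0.44. Those of Robo1, Robo2 and Robo4 were 0.04, -0.06 and 0.19. Robo3, a divergent member that lets axons cross the midline, had a difference of -0.62 (SE 0.21, adjusted p 0.0801).

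Eph receptors are receptor tyrosine kinases that read ephrins on neighbouring cells. Among the EphB receptors 1 of 5 fell. Ephb2, which binds B ephrins and also acts at excitatory synapses, had 2.48 and 2.56 in controls and 1.72 and 1.71 in KO of the numbered series. In the lettered series controls had 2.04 and 2.32, and KO had 1.60 and 1.27. All 4 KO arrays lay below all 4 controls. The change was -0.77 (SE 0.11, adjusted p 0.00242) and was similar in the numbered (-0.80) and lettered (-0.75) series. A second, dimmer Ephb2 probe gave -0.25 (SE 0.14, adjusted p 0.359 with every probe tested), so the 2 probes differ in size and call. The differences of Ephb1, Ephb3, Ephb4 and Ephb6 were -0.04, 0.13, 0.24 and -0.46. Those of the ligands Efnb1, Efnb2 and Efnb3 were 0.27, -0.13 and 0.03, and none passed the test.

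Among the 9 EphA receptors tested 1 fell. Epha8, a receptor of A ephrins, had 3.33 and 3.11 in controls and 2.98 and 2.92 in KO of the numbered series, and 3.32 and 3.48 against 3.15 and 2.75 in the lettered series. The groups did not overlap within a series, but the highest KO level exceeded the lowest control level across them. The change was -0.36 (SE 0.11, adjusted p 0.0425), and the call was lost in 7 of 8 fits that left out 1 array (all but untreated lettered KO array a) and in 8 of 10 other settings, with adjusted p-values from 0.0243 to 0.481 over the latter. Epha2 had a difference of -0.53 (SE 0.17, adjusted p 0.0559) and was not called. The differences of the 5 A ephrins lay between -0.18 (Efna5) and 0.39 (Efna4), and none was called.

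Ephb2 and Epha8 flank the 3 genes of complement component C1q in the reference gene order on chromosome 4. The order of protein-coding genes there is Ephb2, C1qb, C1qc, C1qa, Epha8. The C1q genes, which microglia express, changed in the opposite direction: C1qb by 1.44, C1qc by 1.43 and C1qa by 1.43 (adjusted p 0.00245, 0.00433 and 0.00341).

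**Figure D2:**
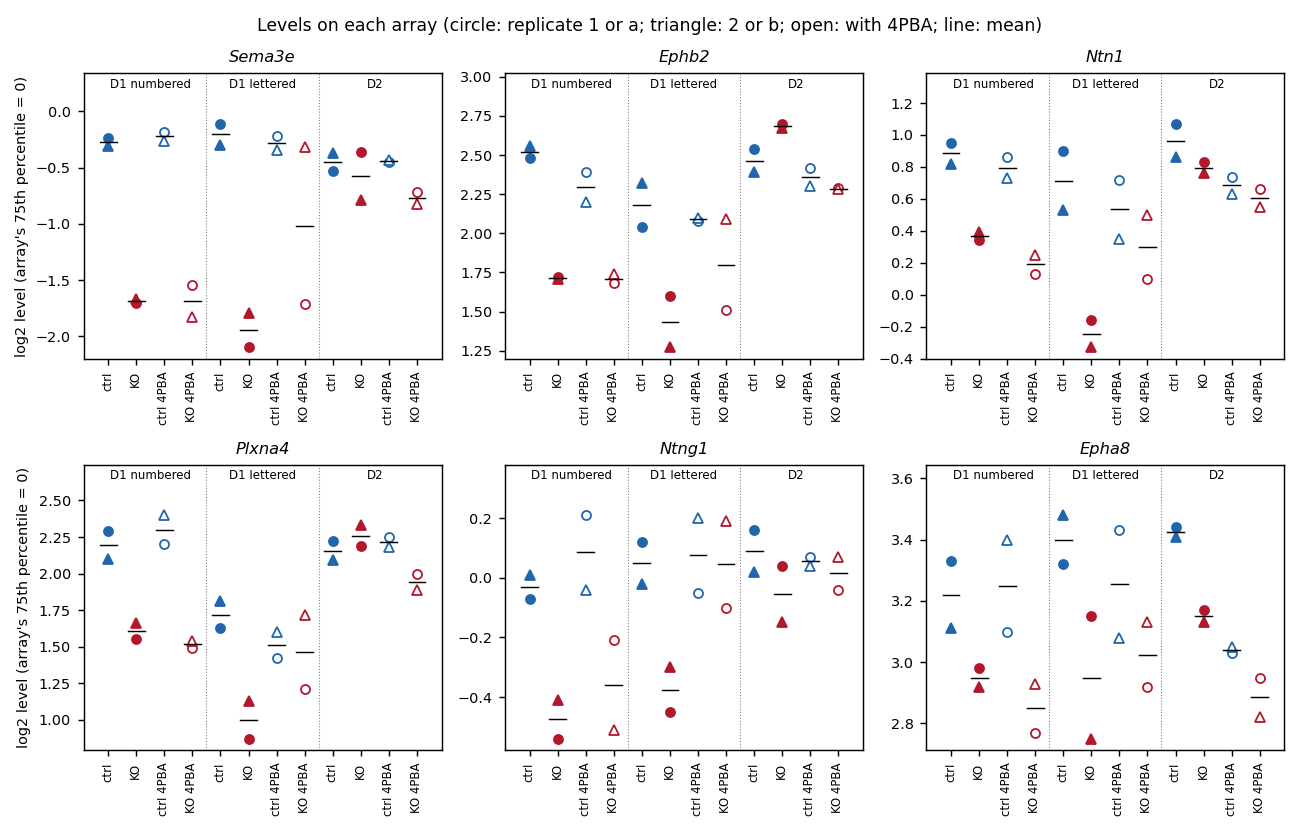
Log2 level of the 6 called genes on each of the 24 arrays, by group; D1 and D2 are the Derlin-1 and Derlin-2 lines, blue is control, red is KO, open symbols had 4PBA and lines are means of 2 arrays. KO levels lie below those of controls in both Derlin-1 series without 4PBA, and the triangle of the lettered KO with 4PBA (array b) lies near the controls, for example at -0.32 for Sema3e.

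Within each series alone the 6 called genes were lower in KO, but the calls differed. In the lettered series alone Sema3e, Ephb2, Ntn1 and Plxna4 were called, where 3.54% of all genes were. In the numbered series alone no member was, with adjusted p-values of these 6 genes from 0.0815 (Ephb2) to 0.481 (Epha8), where 2 genes in all were called. The difference between the series was not called for any member, against 0.0059% of all genes. All arrays of KO and control were separated in the lower direction in both series for 10 members (Slit3, Sema6b, Ntng1, Sema3e, Plxna4, Epha8, Sema4d, Sema6c, Ntn1 and Ephb2), where 12.4% of all genes were. In the higher direction 4 members were (Epha7, Sema3c, Epha10 and Sema6a), where 11.4% of all genes were.

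**Figure D3:**
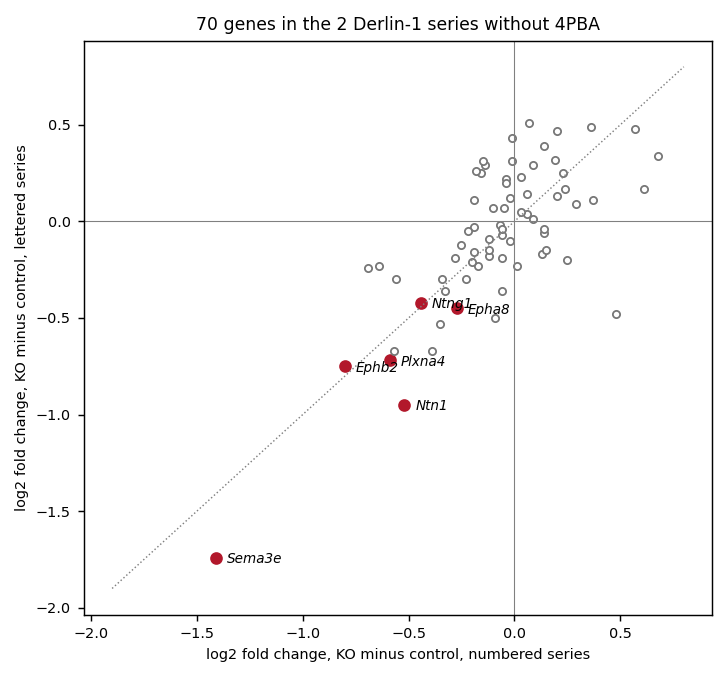
Log2 fold change, KO minus control without 4PBA, in the numbered (x axis) and lettered (y axis) Derlin-1 series; each point is 1 of the 70 tested genes, filled red where called over both series, and the dotted line marks equal values. Sema3e lies farthest from 0, at -1.41 and -1.74, and the other 5 called genes lie between -0.80 and -0.27 on the x axis and between -0.95 and -0.42 on the y axis.

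Other guidance genes were read from a list of 60 effectors, adhesion partners and further cues, of which 59 were tested, 3 rose and 4 fell (11.9%, against 10.6% of all genes). Gap43, a protein of growth cones, changed by -1.0 (SE 0.15, adjusted p 0.00242). Cdc42, a small GTPase that shapes actin, changed by -0.58, its kinase effector Pak1 by -0.48 and Dpysl4, a semaphorin signalling protein, by -0.31. Neo1, a receptor related to Dcc, rose by 0.33 (adjusted p 0.00752), its ligand Rgma by 0.38, and Farp2, which links plexin A receptors to Rac, by 0.30 (adjusted p 0.0482).

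Cell type markers moved with these changes in the same comparison. Of 9 microglial markers 7 rose (median change 1.43), and their mean level ranged from -0.32 to 0.06 on the controls and from 0.77 to 1.16 on the KO arrays. Of 8 granule neuron markers 4 fell (median -0.30), with mean levels of 4.00 to 4.02 in numbered and 3.69 to 3.73 in lettered controls against 3.68 to 3.74 and 3.39 to 3.41 in KO. Of 6 markers of molecular layer interneurons 4 fell (median -0.38), with mean levels of 2.21 to 2.39 in controls against 1.88 to 1.97 in KO. No marker of Purkinje cells, oligodendrocytes, endothelial cells, pericytes or choroid plexus was called, and 1 each rose among those of astrocytes with Bergmann glia (Gfap, 1.25), oligodendrocyte precursors (Olig2, 0.41) and meningeal fibroblasts (Col1a2, 0.34). All markers were well above background on all 24 arrays. In whole cerebellum fewer cells of a type and less RNA per cell cannot be told apart, and the part of these markers in the guidance gene changes was not tested.

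Under 4PBA, on separate arrays, no member was called in Derlin-1 KO against control, where 0.0472% of all genes were and 13 members (18.6%) had an unadjusted p under 0.05, against 12.8% of all genes. Sema3e had -0.18 and -0.26 in numbered controls, -1.54 and -1.83 in numbered KO, -0.22 and -0.34 in lettered controls and -1.71 on lettered KO array a. The array labelled KO 4PBA b had -0.32, which is between the lettered controls. For Ephb2 this array had 2.09 where the lettered controls had 2.08 and 2.10 and array a had 1.51. For Plxna4 it had 1.72, above the controls at 1.42 and 1.60, where array a had 1.21. With this array the differences were -1.10 for Sema3e (adjusted p 0.0892), -0.44 for Ephb2, -0.42 each for Ntn1 and Plxna4, -0.32 for Epha8 and -0.24 for Ntng1.

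Without that array 6.18% of all genes (1047) and 5 members were called, all lower. Derl3 set this array apart, but Sema3e, Ephb2 and Plxna4 were themselves at or above control levels on it, so leaving it out is not independent of these members' values. Sema3e changed by -1.45 (adjusted p 1.44e-05), Ephb2 by -0.58 (0.00214), Plxna4 by -0.54 (0.00383), Ntn1 by -0.52 (0.0138) and Sema4d, a transmembrane semaphorin that binds Plxnb1, by -0.45 (0.0101). Sema4d had 0.43 and 0.30 in controls and -0.19 and -0.25 in KO of the numbered series with 4PBA, and 0.23 and 0.13 in lettered controls against -0.14 on KO array a and 0.21 on the array left out. Without lettered KO 4PBA array a in its place, the lettered KO group is array b alone. Sema3e was then the 1 member called (-0.75, adjusted p 0.0205), where 0.0945% of all genes were. The microglial marker level was -0.25 on 1 lettered KO array with 4PBA and 0.92 on the other, against -0.20 and 0.12 in lettered controls. On numbered arrays with 4PBA it was 0.61 to 0.80 in KO and -0.20 to -0.12 in controls. Granule neuron marker levels there were 3.64 to 3.79 against 3.92 to 4.04. Those of molecular layer interneurons were 1.89 against 2.20 to 2.25. The part of these markers in the guidance gene changes was not tested.

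4PBA itself called no member in Derlin-1 controls (background 0.0295%), where 53 of 70 confidence intervals lay within 0.5 of 0, and none in Derlin-1 KO (background 0.0354%). In Derlin-1 KO the difference of Sema3e with 4PBA was 0.46 (adjusted p 0.742), and 0.11 (adjusted p 1) without the array labelled KO 4PBA b. The difference of the KO effect with and without 4PBA was called for no member (background 0.0118%). For Sema3e it was 0.47 (SE 0.30) with that array and 0.12 (SE 0.15) without it, and for Ephb2 0.34 (SE 0.16) and 0.19 (SE 0.12).

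Derlin-2 KO with vehicle had no called member (background 0.118%), and 3 members (4.29%; Efna1, Plxnc1 and Unc5cl) had an unadjusted p under 0.05, against 8% of all genes. The differences of the 6 genes lower in Derlin-1 KO were -0.13 (Sema3e), 0.22 (Ephb2), -0.18 (Ntn1), 0.10 (Plxna4), -0.14 (Ntng1) and -0.27 (Epha8). Sema3e had -0.53 and -0.37 in controls, -0.36 on array 1 and -0.79 on array 2 of the group labelled KO vehicle. Ephb2 had 2.54 and 2.39 in controls and 2.70 and 2.67 on the arrays labelled KO. Leaving out the array labelled KO vehicle 1 gave 0.487% of all genes called and still no member. The differences were then -0.35 (Sema3e, SE 0.36), 0.20 (Ephb2), -0.21 (Ntn1), 0.18 (Plxna4), -0.24 (Ntng1) and -0.29 (Epha8), with adjusted p-values from 0.686 to 0.831.

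The lines were then compared directly. The difference of the KO effect, Derlin-1 minus Derlin-2, was -1.45 for Sema3e (SE 0.36, adjusted p 0.128), -0.99 for Ephb2 (SE 0.19, adjusted p 0.0974) and -0.76 for Plxna4 (SE 0.18, adjusted p 0.119). No member was called, where 0.065% of all genes were. Leaving out Derlin-2 KO vehicle 1, which leaves 1 array in that group with its spread taken from the other groups, gave -1.23 for Sema3e (adjusted p 0.213), -0.98 for Ephb2 (0.0956) and -0.83 for Plxna4 (0.11). No member was called then either, where 0.422% of all genes were. The lines lay on different slides, and each effect was taken within its slide.

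**Figure D4:**
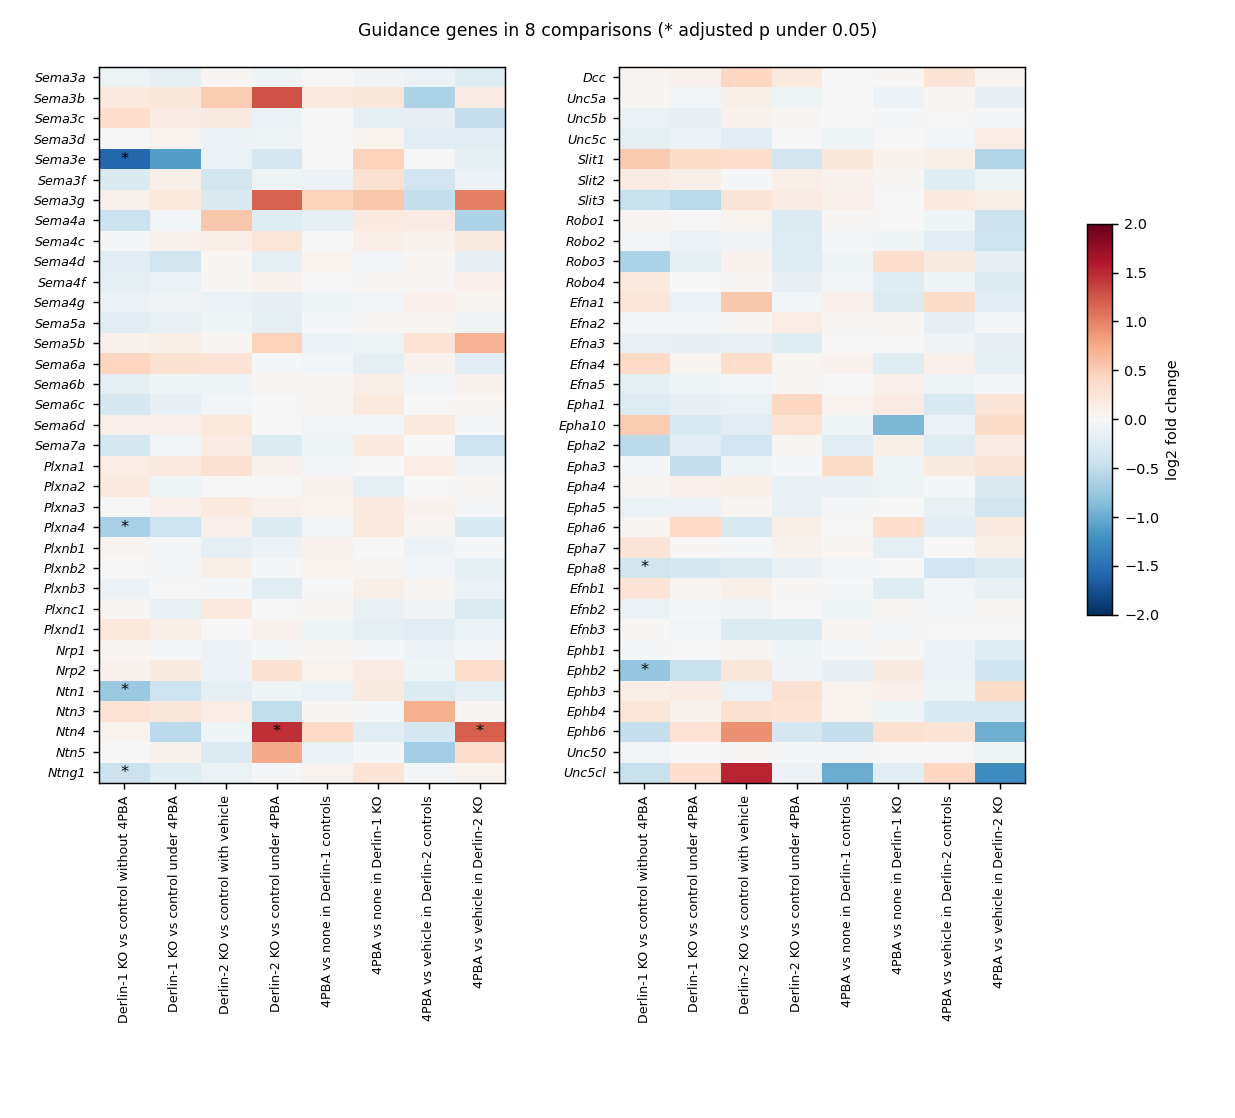
Log2 fold change of the 70 tested genes (rows, by family) in 8 comparisons (columns), blue lower and red higher, on a common colour scale; a star marks an adjusted p under 0.05. The stars number 6 in the first column and 1 each, for Ntn4, in the columns of Derlin-2 KO against control under 4PBA (1.46) and of 4PBA against vehicle in Derlin-2 KO (1.20).

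Under 4PBA, Ntn4 was higher in Derlin-2 KO than in its controls, 2.75-fold, and was the only called member (background 0.136%). Ntn4 is a netrin of basement membranes that binds laminin. It had -2.72 and -2.57 in KO with 4PBA, -4.19 and -4.02 in controls with 4PBA, -3.80 and -3.74 in vehicle controls and -3.85 on both arrays labelled KO vehicle. The 2 KO arrays with 4PBA were the highest of the 23 arrays with a value, ahead of numbered Derlin-1 controls with 4PBA at -3.08 and -3.67. The change was 1.46 (SE 0.18, adjusted p 0.00559). Within Derlin-2 KO, 4PBA against vehicle gave 1.20 (SE 0.18, adjusted p 0.0114, background 0.136%), and leaving out the array labelled KO vehicle 1 kept it at 1.20 (adjusted p 0.041). In that comparison 45 of the 70 members were lower with 4PBA, with a median of -0.08 (-0.06 for all genes). An unadjusted p under 0.05 was found for 13 members (18.6%, against 9.21% of all genes), 9 of them among the 33 receptors and 1 of them Unc5cl, which passed the filter through the KO vehicle group. Examples are Robo1 (-0.43, adjusted p 0.268) and Ephb3 (0.36, adjusted p 0.334). The Ntn4 call in this comparison was lost without KO vehicle 2 (adjusted p 0.0712), without KO 4PBA array 2 (0.0817) and in 4 of 8 other settings, whereas that against controls held without any 1 of the 4 arrays. In Derlin-2 controls 4PBA called no member (background 0.13%), and the difference of Ntn4 was -0.34.

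The spot of Ntn4 on numbered Derlin-1 KO 4PBA array 2 carried an outlier flag and was left out of the fit. In the authors' series table, which keeps that spot, the difference for KO against control under 4PBA was again 1.46 but was not called (adjusted p 0.905), and neither was any other for Ntn4. A single probe reads Ntn4. Cell type markers moved with Ntn4 in this comparison, and their part in the result was not tested. Of 11 marker lists, 2 had a higher mean level on both Derlin-2 KO arrays with 4PBA than on both controls with 4PBA. The choroid plexus level was 2.88 to 3.22 in KO and 0.66 to 1.86 in controls (4 of 4 markers higher, median difference 1.95, none called), and that of meningeal fibroblasts was 1.30 to 1.34 and 0.95 to 1.26 (4 of 5 higher, none called). Another 5 lists were lower on both KO arrays, among them oligodendrocyte precursors (0.45 to 0.50 against 0.68 to 0.74). The other 4 overlapped, among them endothelial cells (0.03 to 0.04 against -0.03 to 0.15) and pericytes with smooth muscle (0.45 to 0.52 against 0.46 to 0.64). Against KO with vehicle, where Ntn4 was also higher with 4PBA, the choroid plexus level (2.42 to 3.31 with vehicle) overlapped, no list was higher and 6 were lower. In numbered Derlin-1 KO the choroid plexus level was -0.29 to 3.58 with vehicle and 2.98 to 3.22 with 4PBA. Ntn4 was -4.19 and -4.17 there with vehicle, and -4.55 on the 4PBA array with a value.

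Other netrins did not pass the test under 4PBA. In Derlin-2 KO against control the difference of Ntn5 was 0.75 (adjusted p 0.658), that of Ntn1 -0.08 and that of Ntn3 -0.50. The difference of the Derlin-2 KO effect with and without 4PBA was called for Ntn4 alone (1.54, background 0.0768%), a comparison added after the Ntn4 values were seen, and that call was lost on leaving out any of the 8 arrays.

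**Figure D5:**
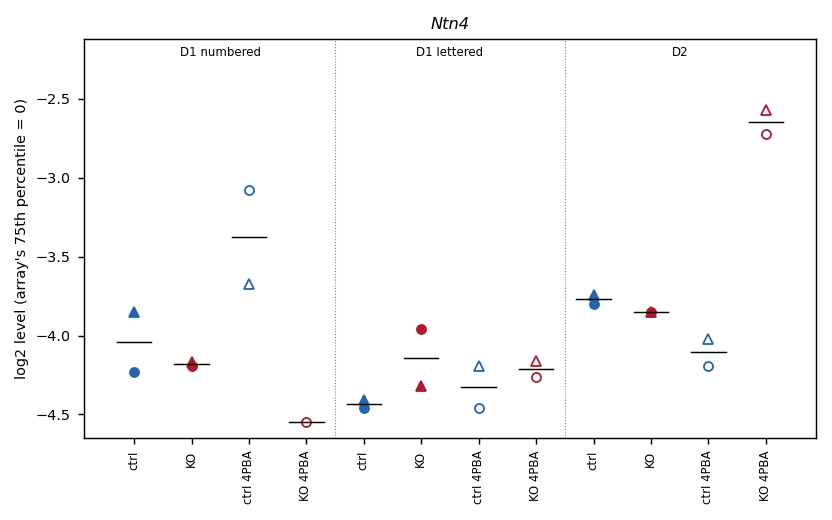
Log2 level of Ntn4 on 23 arrays by group, with symbols as in the plot of the 6 called genes; 1 Derlin-1 KO array with 4PBA has no value because its spot was flagged. Derlin-2 KO arrays with 4PBA lie at -2.72 and -2.57 and the other Derlin-2 arrays between -4.19 and -3.74.

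Some members gave no usable signal. Unc5d, Ntng2 and Plxna4os1 were not well above background on both arrays of any group and were not tested. Unc5cl passed the filter with 2 arrays well above background, those labelled Derlin-2 KO vehicle, so its difference of 1.53 there (SE 0.56, adjusted p 0.505) is that of the group through which it passed the filter. Epha10 was well above background on 12 arrays, Ntn5 on 19 and Sema3g on 20. On all 24 arrays 61 of the 73 members were.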

How the data were processed

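Spots of 24 single-colour Agilent arrays were read with Agilent Feature Extraction 10.7.1.1, per the submitters' processing notes. The deposited value used was the processed signal, a linear intensity after background correction, per the file headers. The members and lists were chosen with earlier results of these data known. Flagged outlier spots were treated as missing. Each array's log2 intensities were lowered by the 75th percentile of its non-control spots. Probes well above background on every array of 1 or more groups were kept (38115), and the brightest probe with a symbol stood for its gene. Symbols came from transcript accessions through the GRCm38.p6 reference. All 24 arrays entered 1 limma 3.58.1 fit (R 4.3.3, version 1.17.8 of data.table) with 12 group means and 12 residual degrees of freedom. Derlin-1 comparisons averaged both series. Tests were two-sided, with Benjamini-Hochberg adjustment over all genes and a threshold of 0.05. The fit was also run on simulated data, whose outcome is not given here and is used for no result. Every member called with all arrays is named with its value on each array of the comparison, partner genes by their change, and effectors where called.

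Slides 1, 2 and 3 held the numbered Derlin-1, the Derlin-2 and the lettered Derlin-1 arrays, and slide position and group cannot be told apart within a slide. On each array 57.7% to 68.4% of the spots were well above background. With 2 arrays in a group, their number limits the precision. The alternatives were another background correction, quantile normalization, no filter, the authors' series table, every probe, a single line alone, each series alone, a replicate block and leaving out arrays.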

Additional observations from a re-analysis of the deposited data

Results flagged for a closer look

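The effect of Derlin-2 loss on Ntn4 differed with and without 4PBA, by 1.54 on the log2 scale (SE 0.25, adjusted p 0.0479, limma), where 0.0768% of all genes were called. This comparison was added after the values of Ntn4 were seen. The KO effect was 1.46 under 4PBA and -0.08 with vehicle. Both KO arrays with 4PBA lay above the other Derlin-2 arrays. The call was lost on leaving out any 1 of the 8 arrays (adjusted p from 0.0614 to 0.146) and in 5 of 8 other settings, while the value stayed between 0.98 and 1.62. Without the array labelled Derlin-2 KO vehicle 1 it was 1.54 (adjusted p 0.0838).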

How the results depend on the processing

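No change of a called member turned its sign under any setting run. The count of members called in Derlin-1 KO without 4PBA was 6. It was 0 in the numbered series alone (0.0118% of all genes called), between 4 and 8 in the other settings that kept all arrays or the lettered series (3.54% to 12.9%), and 4 to 10 on leaving out 1 array (3.86% to 16.5%), with 10 where 16.5% of all genes were called, without untreated lettered KO array b. Sema3e, Ephb2, Ntn1 and Plxna4 were called in 9 of 10 settings and all 8 fits without 1 array, Ntng1 in 7 and 6, and Epha8 in 2 and 1. Without 1 array the count ranged from 0 to 5 in Derlin-1 KO under 4PBA, from 0 to 1 for 4PBA in Derlin-1 KO (Sema3e without lettered KO 4PBA a, 1.14% of all genes), from 0 to 1 for 4PBA in Derlin-2 controls (Ntn3 without control 4PBA 2, 0.302%), from 0 to 2 for 4PBA in Derlin-2 KO and from 1 to 2 for Derlin-2 KO under 4PBA (Sema3g added without KO 4PBA 1, 0.35%). The difference of the Derlin-2 effect with and without 4PBA then gave 0 in every fit. Derlin-2 KO vehicle 1 (control-level Derl2) and Derlin-1 KO 4PBA b (control-level Derl3) were also left out together, a choice made after seeing the data. Whether either label is wrong was not tested, and Derl3 did not place the Derlin-2 array with its controls. That fit leaves 1 array in each of 2 groups. Sema3e, Ephb2 and Plxna4 were then called in the difference between lines. In that difference the Derlin-1 array is in neither arm and enters through the spread alone. It was at or above control level for these 3 genes, so the 3 calls support nothing. The count for 4PBA in Derlin-2 KO (1) became 0 under quantile normalization and with the authors' series table (0.165% of all genes called in each) and 3 with no filter (Ntn4, Plxna4os1 and Robo1), where 8.05% of all genes were called. No filter gave 1 for 4PBA in Derlin-2 controls (Plxna4os1), where 5.58% were. The authors' series table gave 0 for Derlin-2 KO under 4PBA. The difference of the Derlin-2 effect became 0 under quantile normalization, the series table and every probe tested. The cause of these differences was not tested. Deviations of arrays with the same replicate number on a slide correlated between -0.15 and 0.40, which does not settle whether the numbers pair samples. With the replicate block the counts became 0 for 4PBA in Derlin-2 KO, 0 for the difference of the Derlin-2 effect and 1 (Plxna4, 0.39% of all genes) for the difference between lines. Normexp was run on median signals in place of the mean signals planned, and a fit of 1 line alone cannot compare the lines.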
